A study of Mus musculus with 2 samples.

Results

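Natural killer (NK) cells are innate lymphocytes that kill stressed or transformed cells with perforin and granzymes and need no antigen receptor of their own to do so. In mice the circulating pool matures as it loses CD27 and gains CD11b (Itgam), KLRG1 and the exit receptor S1PR5, under the transcription factors EOMES, T-bet and ZEB2. NK-related cells that reside in tissues carry CXCR6 or CD49a (Itga1) instead, and in brain tumours both kinds can be found among infiltrating leukocytes.

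The cells described here are those of the circulating, mature type in 2 single-cell libraries of mouse glioma. C57BL/6 mice received GL261 cells, a glioma line of the same strain background, by intracranial injection. The metformin library came from mice given metformin in their drinking water and the control library from mice given DW control water. In both, the tumour region was dissected on day 20, cells with high CD45 were sorted and the libraries were made with the 10x 3′ kit. Both groups share the strain, the tumour line and the day, and the labels used here give neither the number or sex of the mice in a library nor the dose or start of metformin. There is 1 library per group, so no difference below has a replicate check, no p-value is given, and every interval is a 95% interval that covers counting error only.

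Members were chosen by their own transcripts, counted as unique molecular identifiers (UMIs, each standing for 1 captured RNA molecule). A retained cell had at least 300 genes and at most 10% of its UMIs from mitochondrial genes. An NK cell had at least 2 UMIs of Ncr1 (the activating receptor NKp46) and Klrb1c (NK1.1) together. It also had at most 1 UMI of Cd3d, Cd3e and Cd3g, at most 1 of Cd79a and at most 3 of C1qa, C1qb and C1qc, which mark T cells, B cells and microglia or macrophages. A mature circulating-type cell had in addition at least 1 UMI of S1pr5, Klrg1 or Itgam and none of Cxcr6 or Itga1. The rule found 244 cells among 10041 retained cells, 138 of 4606 in the metformin library and 106 of 5435 in the control library. It left 189 NK cells with Cxcr6 or Itga1, called tissue-type here, and 364 with neither kind of transcript, out of 797 gated NK cells in all.

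Depth was alike in both libraries. The median mature cell held 6203 UMIs in the metformin library and 6384 in the control library, with 2064.5 and 2073.5 genes and 4.21% and 3.86% mitochondrial UMIs. The summed UMIs of the mature cells were 890717 and 684398, and levels are given as CPM, counts scaled to a common total for each set of cells. Of the barcodes removed for mitochondrial UMIs, 5 in the metformin library and 7 in the control library met the rule. Only 9 barcode sequences occurred in both libraries, 1 of them on a mature cell.

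The marker genes of the label were found in the gated cells, although most entered the set through Itgam. Among the metformin cells 89 of 138 had an Itgam UMI, 47 an S1pr5 UMI and 32 a Klrg1 UMI, against 75, 30 and 37 of 106 control cells. Itgam was the only maturity transcript in 70 metformin and 48 control cells, and all 3 were seen together in 4 and 8 cells. Itgam, one chain of complement receptor 3, is also carried by myeloid cells. Eomes, which the rule did not use, had at least 1 UMI in 77.5% of metformin and 83.0% of control cells. With each cell thinned to 3668 UMIs (124 and 102 cells, 14 and 4 shallower cells left out) those shares were 63.7% and 68.6%. The share was 0 in gated B cells of either library, whose median depths were 5170 and 5664 UMIs. Gated B cells had at least 3 UMIs of Cd79a and none of Cd3d, Cd3e, Cd3g, Ncr1 or Klrb1c. Barcodes with stray Ncr1 or Klrb1c UMIs were thus not among them. Circulation itself was not measured, so the name stands for the transcripts alone.

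Many markers of other cell types were few or absent in the set, while some were not. Cd8a, Cd8b1, Cd4 and Cd5 had at most 3 UMIs each over the mature cells of either library, and Il17a, Cd163l1, Sox13, Blk and Ebf1 had none. Trdc, a marker of gamma-delta T cells, had 69 UMIs in metformin and 42 in control cells. That was 77.5 and 61.4 CPM, against 75.4 and 65.3 CPM in NK cells with neither kind of transcript and 35.9 and 28.2 CPM over all other retained cells. The monocyte markers Ccr2 and Plac8 stood at 495 and 355 CPM in metformin and 383 and 307 CPM in control cells. The 12 T cell markers summed to 933 CPM in metformin and 818 CPM in control cells, mostly Trbc1, which tissue-type NK cells held at a like level. In the metformin library, 2 of the 138 barcodes carried a full myeloid programme beside their NK transcripts. The first had 25775 UMIs, 714 of them from Cd74 and 357 from H2-Ab1, both of antigen presentation on MHC class II, and 9 from Xcr1, a receptor of cross-presenting dendritic cells. The second had 13442 UMIs, with 108 from Lyz2 and 83 from Apoe, both abundant in macrophages. They also held 47 and 84 UMIs of Gzma and 105 and 104 of Ccl5. No control cell had over 5 UMIs of the MHC class II genes, Cd74 and Lyz2 together. A doublet caller marked 0 mature cells in either library, these 2 included. They supplied 4.40% of the metformin UMIs. Results between the libraries that rest on them are given with and without them.

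Mature NK cells made up a larger share of the metformin library. They were 3.0% of its retained cells (interval 2.52 to 3.53) against 1.95% in the control library (interval 1.60 to 2.35), a ratio of 1.54 (interval 1.18 to 2.0). The whole NK gate differed as much, with 9.81% against 6.35% and a ratio of 1.55 (interval 1.34 to 1.78). Within the gate the mature share was 30.5% in metformin and 30.7% in control, a ratio of 0.994 (interval 0.766 to 1.29). The tissue-type share of the gate was 20.6% and 27.8% (ratio 0.739, interval 0.550 to 0.994), and the share with neither kind was 48.9% and 41.4% (ratio 1.18, interval 0.952 to 1.47). A share of sorted cells also depends on the sort and on the numbers of all other cells, and gated B cells numbered 217 in the metformin library and 544 in the control library. The interval of the mature share's ratio reached below 1 when 2 maturity UMIs were asked for (ratio 1.40), when Itgam was left out (1.38) and when cells with any UMI of the excluding markers were removed (1.32).

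**Figure D1:**
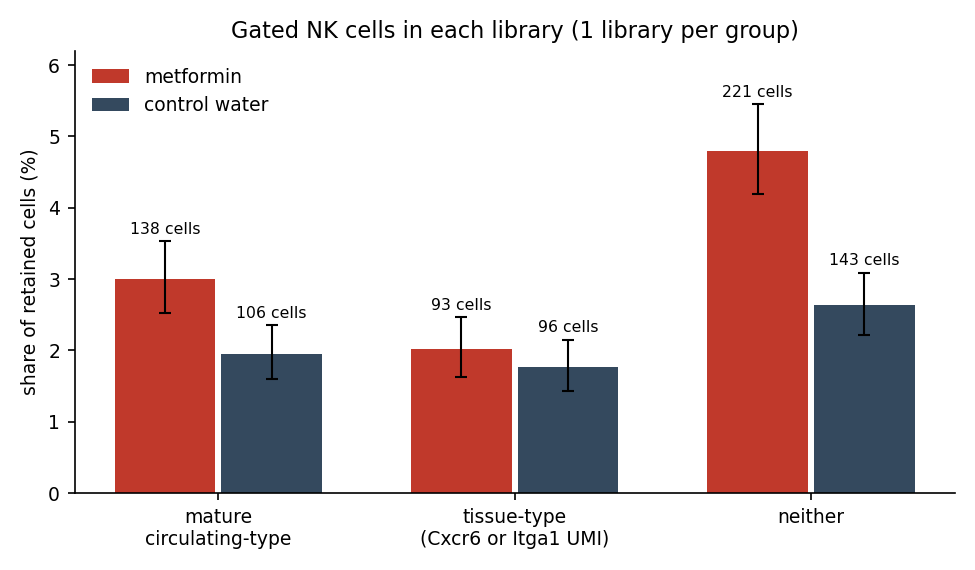
Share of retained cells (%) that were mature circulating-type, tissue-type or neither, metformin left of control water, with exact 95% binomial intervals and 1 library per group. Mature cells stood at 3.0% in the metformin and 1.95% in the control library, and cells with neither kind of transcript at 4.80% and 2.63%.

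Some genes gave graded values near the edge of the gate, and others did not. Gzma, the granule protease granzyme A, was at 9880 CPM in metformin cells with at least 2 maturity UMIs, 7061 CPM in those with exactly 1, and 4791 CPM in NK cells just outside with none. The control library had 12144, 6777 and 5594 CPM in the same order. Cma1, a chymase that is also a transcript of mature mouse NK cells, ran 137, 76.7 and 30.3 CPM in metformin cells and 157, 68.6 and 34.8 CPM in control cells. Eomes did not follow this order, with 282, 305 and 263 CPM in metformin cells and 337, 372 and 293 CPM in control cells. Zeb2 ran 259, 228 and 130 CPM in metformin cells but 249, 150 and 153 CPM in control cells. Cd27 ran 215, 178 and 189 CPM in metformin cells and 115, 161 and 156 CPM in control cells. Exactly 1 maturity UMI was the case for 80 metformin and 57 control cells, so these cells entered the set on a single molecule. At the NK end, 14 metformin and 17 control cells had only the 2 required UMIs, and 16 and 6 cells met the rest of the rule with 1.

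Set against tissue-type NK cells of the same library, the mature cells were richer in the granzyme A, perforin and CC chemokine transcripts of cytotoxic NK cells. They were poorer in Gzmc, Il7r and other residency genes. The rule split these cells by 5 genes, so the contrast is a description. NK cells with neither kind of transcript were not part of it, and the mature metformin cells include the 2 myeloid-rich barcodes. The filter kept 2775 genes with at least 50 CPM and 20 UMIs in mature or tissue-type cells of each library. Of these, 33 (1.19%) were at least 2-fold higher in the mature cells of both libraries and 32 (1.15%) at least 2-fold lower, the gate's own genes among them. The counts below leave those genes out.

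Effector genes stood on both sides. Of 16 granule genes and death ligands that passed the filter, 3 were at least 2-fold higher in both libraries and 2 lower, with a median log2 ratio of 0.11 in metformin and -0.01 in control. Of 8 cytokine and chemokine genes 3 were higher and 2 lower. Gzma was at 8354 CPM in mature against 3401 CPM in tissue-type cells of the metformin library, and at 9172 against 3374 CPM in the control library. Prf1, the pore-forming protein perforin, was at 648 against 239 CPM in metformin and 747 against 301 CPM in control. Ccl5, a chemokine that draws T cells and monocytes, was 2.81-fold higher in metformin and 3.65-fold higher in control. Ccl4 was 3.34-fold higher in metformin and 2.22-fold in control, and Ccl3 2.48-fold in metformin and 2.28-fold in control. Serpinb9, an inhibitor of granzyme B that shields killer cells from their own granules, was 2.02-fold higher in metformin and 2.13-fold in control. Gzmb differed less, at 1.23-fold (interval 1.12 to 1.37) in metformin and 1.12-fold (interval 1.03 to 1.23) in control.

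Of 10 members of the maturation list that the rule did not use and that passed the filter, 4 were at least 2-fold higher in both libraries (Cma1, Zeb2, Gzma and Prf1), 0 were lower and 6 were not past the fold. Ly6c2, among those 6, was at 222 against 218 CPM in metformin and 134 against 176 CPM in control. The value of 222 CPM includes the 2 myeloid-rich barcodes, which raised it. Cma1 was at 104 against 29.1 CPM in metformin and 108 against 14 CPM in control. Zeb2, a repressor needed for the last step of NK maturation, was at 243 against 75.3 CPM in metformin and 194 against 91.3 CPM in control. Eomes was 1.82-fold higher in metformin (interval 1.47 to 2.28) and 2.27-fold in control (interval 1.83 to 2.83). The ratio of Tbx21, which encodes T-bet, was 1.19 in metformin (interval 0.838 to 1.70) and 0.976 in control (interval 0.70 to 1.36). Cd27, whose product is lost on full maturation, was not lower in the mature cells, at 195 against 139 CPM in metformin and 140 against 94.8 CPM in control.

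Of 18 trafficking genes 2 (Itga2 and Itga4) were at least 2-fold higher in both libraries and 0 lower. Of 9 members of the inhibitory receptor list 2 (Klra4 and Klra9) were higher and 0 lower. Klra4 encodes an activating receptor although that list holds it, so the count is not one of inhibitory receptors alone. Itga2, which encodes the NK marker CD49b, was 2.14-fold higher in mature metformin cells and 2.53-fold higher in mature control cells, and Itga4, a chain of the integrin VLA-4 used to enter inflamed brain, was 2.33-fold higher in metformin and 2.81-fold in control. Among Ly49 genes, whose products mostly bind MHC class I, Klra4 was 2.52-fold higher in metformin and 2.36-fold in control, and Klra9 2.25-fold in metformin and 2.20-fold in control. For Klra1 the ratio was 0.863 in metformin (interval 0.596 to 1.25) and 1.27 in control (interval 0.855 to 1.89). Ly49 genes resemble each other closely, so reads could have been split between them and the value of any one is uncertain. Borcs7, part of a complex that positions lysosomes, had the greatest ratio by the rule used for naming, 7.39 (interval 3.83 to 16) in metformin and 4.76 (interval 2.91 to 8.10) in control. In the metformin and the control library, As3mt (3.0 and 5.99), Scimp (3.28 and 3.29), Mef2c (4.94 and 2.45), Adamts14 (3.01 and 4.37), Nr4a2 (2.76 and 3.55), Rasgrp2 (2.51 and 3.31) and Arhgef18 (2.50 and 2.50) followed. Some of these were closer in NK cells with neither kind of transcript. Mef2c stood there at 94.7 CPM in metformin and 71.6 CPM in control, against 71.9 and 83.3 CPM in mature cells. Adamts14 stood there at 38.7 and 35.8 CPM, against 51.6 and 51.1 CPM in mature cells. Borcs7 differed more, at 40.6 and 43.2 CPM there against 97.7 and 117 CPM in mature cells.

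On the lower side, 7 of 11 members of the tissue-type list that passed the filter were at least 2-fold lower in both libraries. Gzmc, a granzyme of strongly activated or resident NK cells, stood furthest apart, at 8.98 CPM in mature against 1539 CPM in tissue-type metformin cells and 7.31 against 2654 CPM in control. Il7r, the interleukin-7 receptor of innate lymphoid cells, was at 2.25 against 126 CPM in metformin and 4.38 against 128 CPM in control. Tmem176a, Tmem176b, Rora, Inpp4b and Tnfsf10 (the death ligand TRAIL) were lower as well, with ratios between 0.0266 for Tmem176a and 0.332 for Rora over both libraries. Xcl1, which attracts cross-presenting dendritic cells, was at 427 against 1191 CPM in metformin and 395 against 1292 CPM in control. Cd226, an activating receptor for nectin-family ligands, was at 14.6 against 95.2 CPM in metformin and 17.5 against 88.9 CPM in control. S100a4, Spp1, Ckb and Ly6a were also among the 12 lowest. For S100a4, mature cells had 51.6 CPM in metformin and 51.1 CPM in control. NK cells with neither kind of transcript had 39.3 CPM of S100a4 in metformin and 35.8 CPM in control. Ly6a was at 66.2 CPM in mature metformin cells, and at 12.9 CPM without the 2 myeloid-rich barcodes, against 4.38 CPM in mature control cells. Klrk1, which encodes NKG2D, was close in both types, at a ratio of 1.10 in metformin (interval 0.997 to 1.21) and 1.11 in control (interval 1.0 to 1.23).

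**Figure D2:**
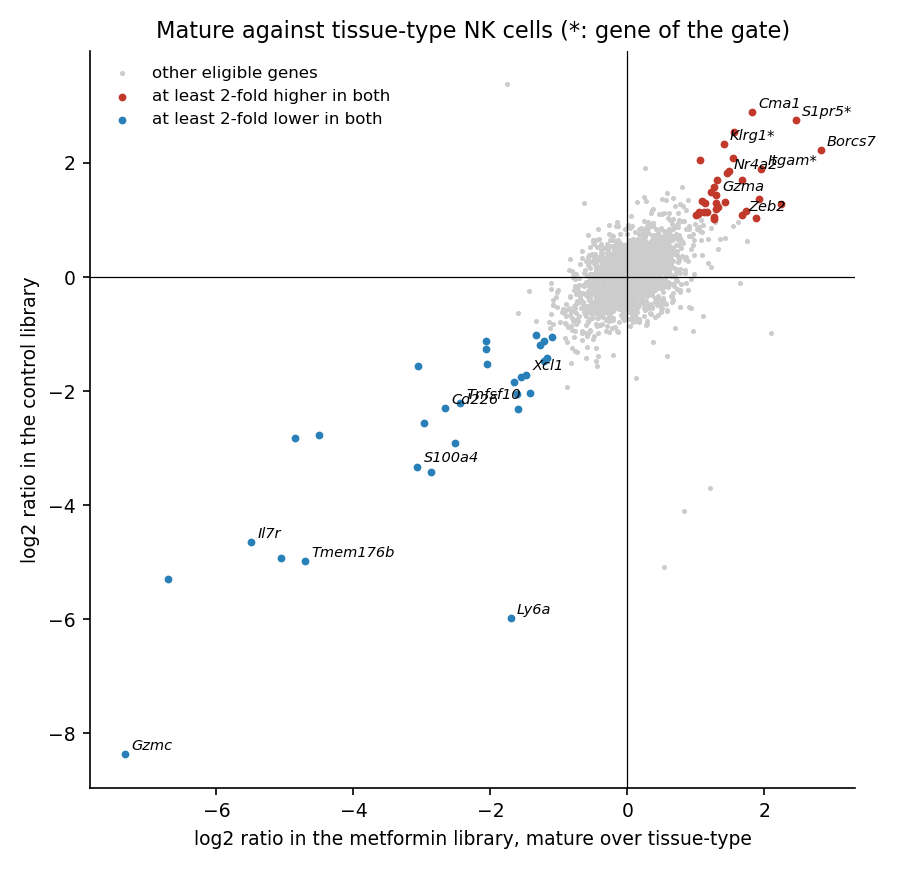
Each point is a gene with at least 50 CPM and 20 UMIs in mature or tissue-type cells of each library. It is placed by the log2 ratio of mature over tissue-type NK cells in the metformin library (horizontal) and in the control library (vertical). Genes at least 2-fold higher or lower in both are coloured, and Cxcr6 and Itga1 are left out because the rule sets them to 0 in mature cells. Cma1 and Borcs7 lie high in both libraries, while Gzmc and Il7r lie far below and Ly6a is much lower in control than in metformin. The mature metformin level of Ly6a was 66.2 CPM with the 2 myeloid-rich barcodes and 12.9 CPM without them.

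Promoters are shown for the genes of the higher group that hold the core site of T-box factors, the family of EOMES and T-bet. The site searched was GGTGTGA on either strand (TCACACC on the other), in the window from 250 bases before to 50 after the start in RefSeq's table for GRCm38.p6. It was found in 3 of the 24 higher genes with an entry (12.5%) and in 1 of 23 lower genes (4.35%). Over all genes it was found in 1070 of 27025 promoters (3.96%). Only the first entry of each gene was searched, and RefSeq's table holds 2 entries for Arhgef18 and 3 for Sbno2. The 250 bases before the start are printed 5′ to 3′ on the gene's strand, with the site in capitals. Arhgef18, a guanine nucleotide exchange factor, lies on the plus strand at chr8:3353187-3353436, Itga4 on the plus strand at chr2:79255176-79255425, and Sbno2, a transcriptional coregulator, on the minus strand at chr10:80102703-80102952.
Arhgef18: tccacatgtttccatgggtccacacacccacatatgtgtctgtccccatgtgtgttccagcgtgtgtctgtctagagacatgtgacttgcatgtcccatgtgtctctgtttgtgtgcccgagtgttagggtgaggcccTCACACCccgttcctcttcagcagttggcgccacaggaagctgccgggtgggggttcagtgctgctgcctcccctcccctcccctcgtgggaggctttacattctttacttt
Itga4: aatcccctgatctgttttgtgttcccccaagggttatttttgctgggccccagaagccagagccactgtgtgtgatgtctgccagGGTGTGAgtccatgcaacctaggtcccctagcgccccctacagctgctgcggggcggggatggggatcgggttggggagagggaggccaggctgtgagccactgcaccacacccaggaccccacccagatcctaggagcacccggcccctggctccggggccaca
Sbno2: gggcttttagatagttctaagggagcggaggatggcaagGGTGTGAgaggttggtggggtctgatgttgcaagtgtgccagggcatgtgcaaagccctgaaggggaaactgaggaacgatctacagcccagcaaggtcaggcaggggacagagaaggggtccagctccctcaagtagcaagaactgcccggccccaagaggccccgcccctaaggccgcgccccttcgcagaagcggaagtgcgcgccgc
The site begins 112 bases before the start in Arhgef18, on the opposite strand, 165 before it in Itga4 and 211 before it in Sbno2. These 3 genes were 2.03-fold to 2.81-fold higher in mature than tissue-type cells across both libraries, and Arhgef18 and Itga4 are among the genes named above. A match is a run of letters, and binding was not measured.

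Between the libraries, most transcripts of mature NK cells differed little. Of 2944 genes with at least 50 CPM and 20 UMIs in 1 library, 102 (3.46%) were at least 1.5-fold higher in metformin than in control cells and 95 (3.23%) at least 1.5-fold lower. Without the 2 myeloid-rich barcodes the counts were 84 (2.86%) and 99 (3.37%) of 2942. The median log2 ratio of all these genes was -0.03.

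The genes that define NK cells were close. None of the 12 identity genes was past 1.5-fold, and their median log2 ratio was -0.05. Ncr1, Klrb1c, S1pr5 and Klrg1 are among the 12 and were used by the rule, so their closeness is partly set by how the cells were chosen. Ncr1 was at 483 CPM in metformin and 542 CPM in control cells (ratio 0.891, interval 0.773 to 1.03). Klrb1c had 605 CPM in metformin and 614 CPM in control cells (ratio 0.986, interval 0.866 to 1.12). Eomes (chr9:118478212-118486132, mm10) had 294 CPM in metformin and 357 CPM in control cells (ratio 0.825, interval 0.690 to 0.986). Leaving out the 2 barcodes moved the Eomes interval across 1 (0.716 to 1.02). Tbx21, Il2rb (the signalling chain shared by the interleukin-2 and interleukin-15 receptors) and Klrd1 (CD94) had ratios of 0.904, 0.955 and 1.03.

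The 3 maturity genes of the rule lay on both sides of 1, with intervals that reach it. S1pr5 was at 68.5 CPM in metformin and 58.4 CPM in control cells (ratio 1.17, interval 0.774 to 1.79). Klrg1, an inhibitory receptor for cadherins, had 57.3 CPM in metformin and 84.7 CPM in control cells (ratio 0.676, interval 0.455 to 1.0). Itgam had 146 CPM in metformin and 158 CPM in control cells (ratio 0.925, interval 0.711 to 1.21). Since at least 1 of these was required of each cell, they describe how the set was filled.

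The maturation list, which also holds S1pr5, Klrg1 and Itgam of the rule, split between the directions. Of 14 members of the maturation list that passed the filter, 1 (Ly6c2) was past 1.5-fold higher and 0 lower, with a median of -0.12. Ly6c2 had 222 CPM in metformin and 134 CPM in control cells, and its ratio of 1.65 was 1.27 (interval 0.969 to 1.66) without the 2 barcodes. Zeb2 was at 243 CPM in metformin and 194 CPM in control cells (ratio 1.25, interval 1.0 to 1.56). Cx3cr1, a receptor of patrolling NK cells, had 34.8 CPM in metformin and 29.2 CPM in control cells, and Prdm1, which encodes BLIMP1, had 34.8 CPM in metformin and 51.1 CPM in control cells, both with intervals across 1. Cd27 was at 195 CPM in metformin and 140 CPM in control cells (ratio 1.39, interval 1.08 to 1.81), below the fold. With cells thinned, 44.4% of metformin and 34.3% of control cells had a Cd27 UMI, against 5.1% and 6.2% of gated B cells. None of 10 immaturity genes was past the fold, with a median of 0.16.

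Irf8, a transcription factor that mature NK cells use in antiviral responses, was lower in metformin cells at a ratio of 0.686 (interval 0.618 to 0.762), just inside the fold. It stood at 758 CPM in metformin and 1105 CPM in control cells. Over single cells the lowest value was 0 in both, the medians were 5.12 and 10.4 UMIs per 10000, and the highest were 36.7 and 48.0. The ratio was 0.946 in tissue-type cells and 0.980 in NK cells with neither kind of transcript, and the difference between the sets was not tested.

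Ikzf3 (chr11:98464902-98546031, mm10), which encodes the lymphoid zinc finger factor Aiolos, was the transcription factor of its list furthest below control. It had 67 UMIs in metformin and 102 in control cells, or 75.2 CPM in metformin and 149 CPM in control (ratio 0.505, interval 0.365 to 0.694). With cells thinned, 18.5% of metformin and 42.2% of control mature cells had a UMI, against 37.1% and 33.7% of tissue-type cells. The ratio was 0.917 in tissue-type cells and 1.02 in cells with neither kind of transcript. Of 24 transcription factors that passed the filter Ikzf3 alone was past 1.5-fold, and their median was -0.11.

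**Figure D3:**
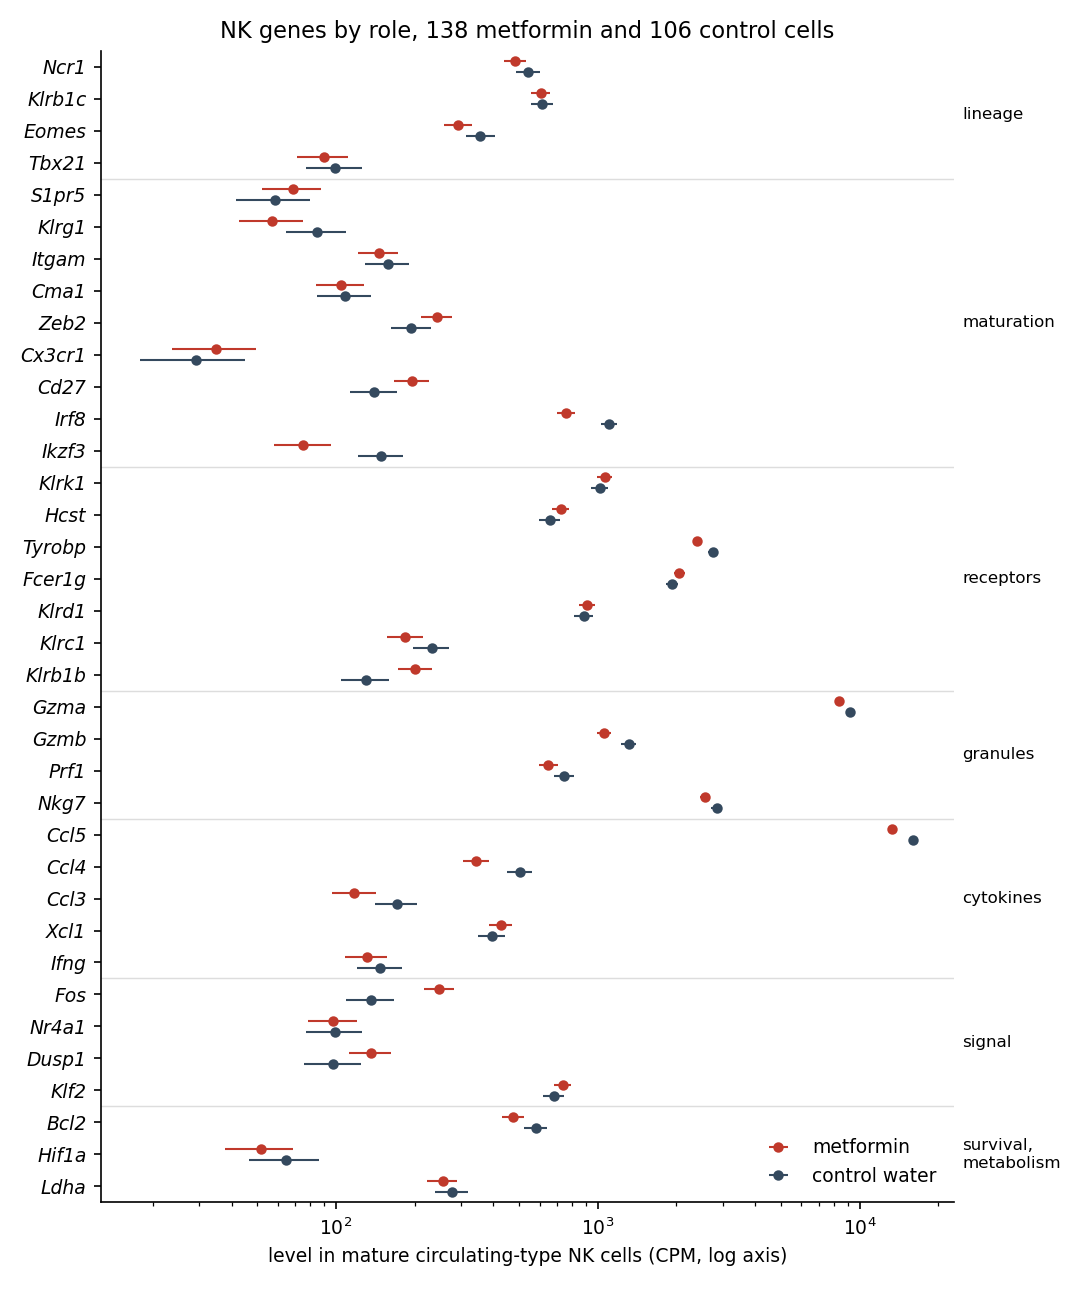
Level (CPM, log axis) of NK genes in mature cells, metformin above control water for each gene, with exact 95% Poisson intervals, grouped by role. Most pairs lie close together, Fos and Cd27 are higher in metformin cells, and Ikzf3, Irf8, Ccl4 and Gzmb are higher in control cells.

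Receptors and their adaptors were near even. None of 16 activating receptors and adaptors was past 1.5-fold, with a median of 0.02. Klrk1 was at 1063 CPM in metformin and 1017 CPM in control cells (ratio 1.05, interval 0.947 to 1.15), and Hcst, the adaptor DAP10 that signals for NKG2D, at 722 CPM in metformin and 656 CPM in control cells (ratio 1.10, interval 0.974 to 1.24). Tyrobp, the adaptor DAP12, had 2406 CPM in metformin and 2760 CPM in control cells (ratio 0.872, interval 0.819 to 0.928). Of 10 members of the inhibitory receptor list that passed the filter 1 was past the fold, Klrb1b, whose product binds a C-type lectin on healthy cells. It stood at 201 CPM in metformin and 130 CPM in control cells (ratio 1.55, interval 1.19 to 2.02). It resembles its neighbour Klrb1c in sequence, so its counts are uncertain. Klrc1, which encodes NKG2A, had 184 CPM in metformin and 232 CPM in control cells (ratio 0.793, interval 0.633 to 0.992).

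Granule and chemokine transcripts differed by less than the fold. None of 14 granule genes and death ligands was past 1.5-fold, with a median of -0.08. Of the 14, 6 had a ratio above 1 (7 without the 2 barcodes), beside 1343 of all 2944 genes. Gzma was at 8354 CPM in metformin and 9172 CPM in control cells (ratio 0.911, interval 0.881 to 0.942). Its lowest value was 0 in both libraries, its medians were 77.0 and 85.9 UMIs per 10000 in single cells, and its highest were 369 and 431, so the cells overlap over almost the whole range. Gzmb stood at 1058 CPM in metformin and 1314 CPM in control cells, a ratio of 0.805 (interval 0.734 to 0.883). Prf1 stood at 648 CPM in metformin and 747 CPM in control cells, a ratio of 0.868 (interval 0.769 to 0.979) that was 0.892 without the 2 barcodes, with an interval across 1.

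Of 8 cytokine and chemokine genes 0 were past the fold, with a median of -0.20. Ccl4 was at 345 CPM in metformin and 504 CPM in control cells (ratio 0.684, interval 0.584 to 0.800). Ccl3 had 118 CPM in metformin and 171 CPM in control cells (ratio 0.690, interval 0.525 to 0.905). Both were also lower in other sets. The Ccl4 ratio was 0.454 in tissue-type cells, 0.555 in cells with neither kind of transcript, 0.353 in gated B cells and 0.963 over all other retained cells. For Ccl3 these ratios were 0.635, 0.715, 0.559 and 0.917. Ccl5 had 13339 CPM in metformin and 15951 CPM in control cells (ratio 0.836, interval 0.815 to 0.858). Ifng, the macrophage-activating interferon, stood at 131 CPM in metformin and 148 CPM in control cells (ratio 0.890, interval 0.676 to 1.17). In the control library 1 cell held 36.6% of that library's Ifng UMIs. Xcl1 had 427 CPM in metformin and 395 CPM in control cells (ratio 1.08, interval 0.923 to 1.27).

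Of the genes that stimulation induces within minutes, Fos differed most. Fos (chr12:85473890-85477273, mm10), a subunit of the AP-1 factor, had 221 UMIs in metformin and 93 in control cells, or 248 CPM in metformin and 136 CPM in control (ratio 1.83, interval 1.43 to 2.35). With cells thinned, 42.7% of metformin and 25.5% of control mature cells had a UMI, against 46.2% and 42.3% of gated B cells and 41.6% and 41.3% of tissue-type cells. By summed UMIs the Fos ratio was 2.30 in tissue-type cells (interval 1.92 to 2.76), 1.60 in NK cells with neither kind of transcript (interval 1.35 to 1.91), 0.987 in gated B cells (interval 0.891 to 1.09) and 1.28 over all other retained cells, so a higher level in metformin was also found in the other NK cells. Jun, its partner, had 493 CPM in metformin and 370 CPM in control cells (ratio 1.33), and Fosb 161 CPM in metformin and 117 CPM in control cells (ratio 1.37). Dusp1, a phosphatase that ends MAP kinase signals, had 136 CPM in metformin and 97.9 CPM in control cells (ratio 1.39, interval 1.02 to 1.90). Nr4a1, a nuclear receptor induced through activating receptors, had 97.7 CPM in metformin and 99.4 CPM in control cells (ratio 0.983, interval 0.708 to 1.37), while its ratio was 2.23 in tissue-type cells and 2.36 in cells with neither kind of transcript. The 23 immediate early genes held 1 past the fold higher (Fos) and 1 lower (Nfkbiz), with a median of 0.01. The 14 heat shock and dissociation genes, which handling of tissue can induce, held none past the fold and had a median of 0.12, and their part in the Fos value was not tested.

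The promoter of Fos is printed because it carries TGACG, the half-site of cyclic AMP response elements (CGTCA on the other strand). With the first entry of each gene, 21.0% of promoters in the same table hold that half-site. The 250 bases before the start of Fos lie on the plus strand at chr12:85473640-85473889 of GRCm38.p6. The 2 matches are in capitals, beginning 129 and 66 bases before the start.
Fos: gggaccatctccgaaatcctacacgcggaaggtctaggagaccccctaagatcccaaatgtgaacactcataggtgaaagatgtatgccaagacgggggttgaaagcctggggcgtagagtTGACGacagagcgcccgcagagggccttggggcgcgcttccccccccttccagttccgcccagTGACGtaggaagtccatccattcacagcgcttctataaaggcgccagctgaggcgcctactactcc
Fos was the single gene past the fold among 11 cyclic AMP response genes that passed the filter, whose median was 0.22.

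Metabolic, growth and stress lists, chosen because metformin is known to act on mitochondrial complex I and AMPK, gave few genes past the fold. Of 36 nuclear and 6 mitochondrial complex I genes 0 were past it, with medians of -0.03 and 0.13. Of 15 hypoxia and glycolysis genes 0 were past it, with a median of 0.07, with Hif1a at 0.803 times (interval 0.520 to 1.24) and Ldha at 0.922 times (interval 0.757 to 1.12) the control level. Prkag1, a regulatory subunit of AMPK, was the 1 of 5 genes of its list past the fold, at 83.1 CPM in metformin and 52.6 CPM in control cells (ratio 1.58, interval 1.05 to 2.42). Among 10 growth genes of mTORC1 and MYC, the nucleolar factors Ddx21 and Nop56 were past the fold lower, both at a ratio of 0.649, and the median was -0.31. Without the 2 barcodes Ddx21 was at 0.652 and Nop56 at 0.679, within the fold and with an interval across 1. The TGF-beta list held Ski and Tgif1, both corepressors of SMAD factors, past the fold lower among 8, at ratios of 0.608 and 0.632 and a median of -0.20, and without the 2 barcodes the Tgif1 interval reached across 1 (0.416 to 1.04). Cebpb was the 1 of 5 integrated stress response genes past the fold (ratio 1.64, interval 1.20 to 2.28). Bcl2, which protects lymphocytes from apoptosis, was at 474 CPM in metformin and 580 CPM in control cells (ratio 0.817, interval 0.711 to 0.939), and none of 8 survival genes was past the fold.

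**Figure D4:**
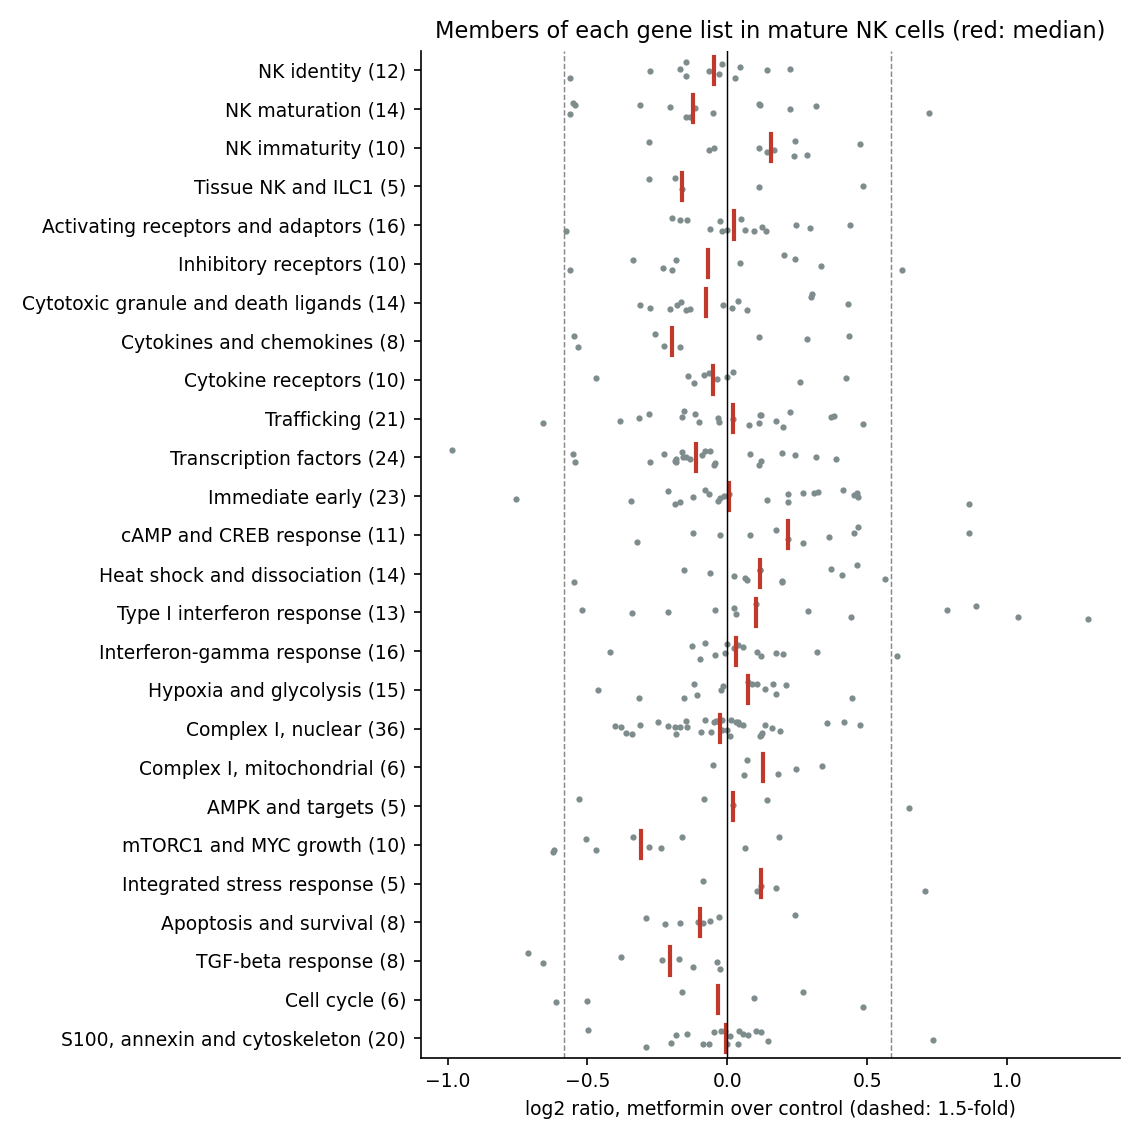
Each grey point is a gene of the list named at the left that passed the filter (their number in brackets), placed by the log2 ratio of metformin over control in mature NK cells, with the list median in red and 1.5-fold marked by dashed lines. Most medians lie within 0.2 of 0, and type I interferon genes hold 4 points past the fold on the metformin side.

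Type I interferon genes held the most members past the fold of any list other than cell type markers, and that count depended on the 2 barcodes. Of 13 that passed the filter, 4 were past 1.5-fold higher (Ifit1, Irf7, Ifi27l2a and Isg15), and without those barcodes 1 was higher and 1 lower. Ifit1, an antiviral protein that binds foreign RNA, was the one that stayed above the fold, at 58.4 CPM in metformin and 23.4 CPM in control cells (ratio 2.50, interval 1.40 to 4.69, and 2.51 without them). It came from 26 metformin and 8 control cells. Irf7, the amplifier of the interferon response, had a ratio of 1.86 and of 1.42 (interval 1.06 to 1.90) without them. Isg15 had 1.73, and 1.25 without them, and Ifi27l2a 2.06, and 0.666 without them.

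The 12 highest genes by the naming rule were largely set by these barcodes. Cd74 (ratio 15.6, and 1.42 without them), H2-Ab1 (16.7 and 1.56), Ifitm3 (17.1 and 0.804), Ly6a (15.1 and 2.95) and Ifitm2 (12.5 and 0.402) led. Ms4a4c (2.88 and 1.51), Ctss (1.85 and 1.21) and Ppt1 (2.09 and 1.66) were also reduced without them. Npepps (3.19 and 3.28), Fos (1.83 and 1.77) and Ifit1 stayed within 0.1 of their ratios. Npepps, a cytosolic aminopeptidase, had 46.3% of its metformin UMIs in 1 cell.

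The 12 lowest were Gh, Cdk6, Sox4, Ikzf3, Mllt10, Dnttip2, Rasa3, Ssr1, Erg28, Clptm1l, M6pr and Ide. Gh, pituitary growth hormone, had 1 UMI in metformin and 38 in control cells, and in all other retained cells it stood at 1.10 CPM in metformin and 2299.6 CPM in control. Igkc, an immunoglobulin light chain that the naming rule keeps out of the 12, likewise had 4.49 CPM in metformin and 164 CPM in control mature cells, and 583 CPM in metformin and 5138 CPM in control over all others. Gated CD8 T cells had at least 2 UMIs of Cd3 genes, 2 of Cd8a and Cd8b1, and none of Ncr1, Klrb1c or Cd79a. These cells make neither Gh nor Igkc. They had 0.691 CPM of Gh in metformin and 61.4 CPM in control, and 16.8 CPM of Igkc in metformin and 120 CPM in control. Cdk6, a cell cycle kinase, had 15 UMIs in metformin and 36 in control cells (ratio 0.320, interval 0.163 to 0.60), and Rasa3, a brake on Ras and Rap1, 59 in metformin and 83 in control cells (ratio 0.546, interval 0.384 to 0.772). Ide, which encodes insulin-degrading enzyme, had a ratio of 0.512 here, 0.449 in tissue-type cells, 0.361 in cells with neither kind of transcript and 0.563 over all other retained cells, so it was lower in all 4 sets.

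**Figure D5:**
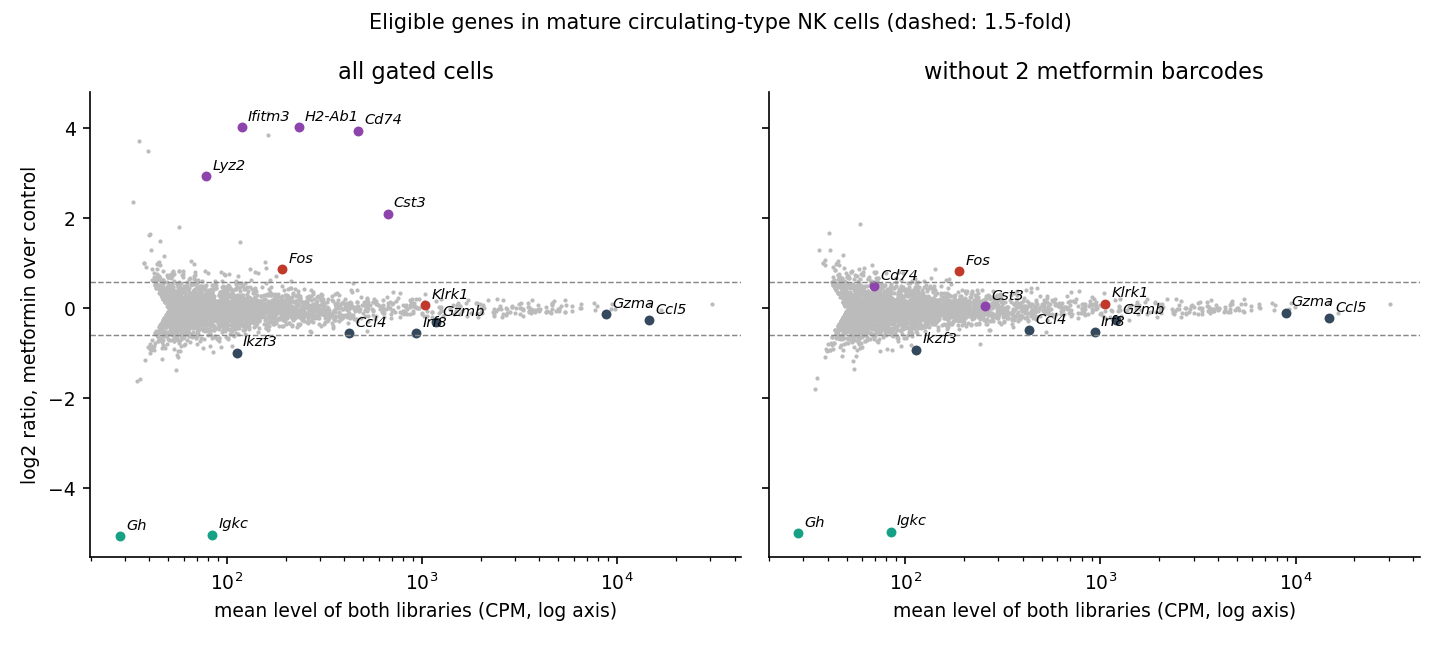
Log2 ratio of metformin over control against mean level (CPM, log axis) for each gene that passed the filter in mature NK cells, with all gated cells at the left and without the 2 myeloid-rich metformin barcodes at the right. Cd74, H2-Ab1, Lyz2, Cst3 and Ifitm3 stand far above 0 at the left, while Fos lies above 1.5-fold and Ikzf3, Gh and Igkc below it in both panels.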

How the data were processed

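The deposited matrices hold raw UMI counts per gene and cell barcode. The authors' tools were Cell Ranger and Seurat with build mm10, per the submitters' processing notes. Their versions are not given in the sources used here, and the file headers name matrix software 3.0.0. The files hold 5473 metformin and 6174 control barcodes. Barcodes with under 300 genes (151 and 92) or over 10% mitochondrial UMIs (716 and 647) were removed. UMIs were then summed over the gated cells of a library with Python 3.11.15, numpy 2.4.6 and pandas 2.3.3, and divided by the sum over all genes. Intervals came from scipy 1.17.1: Clopper-Pearson for shares, exact Poisson for levels, and the exact conditional interval for ratios. Log2 ratios had 0.5 UMIs added to both counts. PCR and capture are not covered by these intervals. Doublets were looked for with Scrublet in scanpy 1.11.5 and kept, since the rule does not name them. The scripts were tested on simulated data. Gene coordinates are from GENCODE on GRCm38 and promoters from RefSeq.

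The members and gene lists were chosen with earlier results of these data known. A gene past the fold is at least 1.5-fold higher or lower (2-fold in both libraries for mature against tissue-type cells). Named genes are a fixed set of NK genes, the 12 highest and 12 lowest by the interval bound nearest to 1 that stay past the fold without their richest cell, the same number for mature against tissue-type cells, and up to 4 members of each list. Serpinb9, Itga2, Itga4, Sbno2, the Ly49 genes, Rora, Jun and Fosb, and the 2 myeloid-rich barcodes, were picked out with their values known. Alternatives covered the gate, cell filter, doublets, equal depth, richest cell, scaling, cell weights, low-value filter and fold.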

Additional observations from a re-analysis of the deposited data

Results flagged for a closer look

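A handful of genes differed between the libraries in opposite directions in mature and in tissue-type NK cells, and the difference between the sets was not tested. Ifitm3, an antiviral membrane protein, had a ratio of metformin over control of 17.1 in mature cells and 0.536 in tissue-type cells, and Ifitm2 had 12.5 and 0.227. Ifi27l2a had 2.06 and 0.545, and Lgals3 (galectin-3) had 1.68 and 0.449. Without the 2 myeloid-rich barcodes the mature ratios of these 4 genes were 0.804, 0.402, 0.666 and 0.579, below 1 as in tissue-type cells. The Ifitm3 value rested on 9 metformin and 9 control UMIs, with an interval of 0.283 to 2.29. The Ifitm2 value rested on 2 metformin and 4 control UMIs, with an interval of 0.0364 to 2.80. Both intervals span 1, so the side of 1 is uncertain for Ifitm3 and Ifitm2. Sox4, a transcription factor of immature lymphocytes, went the other way, with 0.332 in mature cells (0.282 without the barcodes) and 13.3 in tissue-type cells, where it had 47 metformin and 4 control UMIs. Those came from few cells, 9.68% of metformin and 4.17% of control tissue-type cells. With cells thinned the shares were 5.62% (interval 1.85 to 12.6) and 3.26% (interval 0.678 to 9.23).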

How the results depend on the processing

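No paired analysis was possible because each group has 1 library. Over the alternatives, the ratio of the mature share of retained cells stayed between 1.32 and 1.66. That of the mature share within the gate stayed between 0.895 and 0.994. Of the named genes' ratios under the alternatives 1000 stayed within the counting interval, 141 moved and 17 changed side. A change of side was counted only for genes past the fold whose interval left out 1. No mature cell was marked as a doublet, so the 118 ratios without marked doublets could not move. Centring on the median gene divided every ratio by the same factor, and its 118 ratios also stayed within the interval.
Counts of genes past the fold, against 102 higher and 95 lower, grew where fewer cells entered: 254 and 250 with 2 maturity UMIs, 280 and 239 without Itgam, 215 and 252 with stricter exclusion of other cells, 280 and 189 when gated at equal depth, and 164 lower with the stricter cell filter. A filter of 20 CPM and 10 UMIs gave 468 and 446, one of 100 CPM and 50 UMIs 27 and 18, a fold of 1.3 gave 264 and 328, and a fold of 2 gave 24 and 10. For mature against tissue-type cells (33 higher, 32 lower), asking 2 UMIs of Cxcr6 or Itga1 gave 64 higher and the looser filter 63 and 73. The cause was not tested.
Ratios that changed side were Ifi27l2a (0.928 without Itgam, 0.779 with stricter exclusion, 0.434 at equal depth, 0.666 without the 2 barcodes, 0.722 without the richest cell), Lgals3 (0.389 with stricter exclusion, 0.615 at equal depth, 0.579 without the 2 barcodes, 0.911 without the richest cell, 0.937 as a mean over cells), Ifitm3 (0.945 with stricter exclusion, 0.717 at equal depth, 0.804 without the 2 barcodes), Ifitm2 (0.402 without the 2 barcodes), Ly6c2 (0.756) and Stmn1 (1.13) with stricter exclusion, and Ski (1.004 at equal depth). The 2 barcodes were left out as an alternative chosen after seeing the data.
A change of sign was counted only for list medians at least 0.10 from 0 in the main setting. Smaller medians also crossed 0, such as hypoxia and glycolysis (0.074, and -0.007 without the 2 barcodes) and cell cycle (-0.032 and 0.028). List medians counted as changing sign were tissue NK (0.10) and cyclic AMP (-0.12) with 2 maturity UMIs, and maturation (0.10) and transcription factors (0.088) without Itgam. With stricter exclusion they were immaturity (-0.000461), type I interferon (-0.20) and integrated stress (-0.19). At equal depth they were maturation (0.012), tissue NK (0.054), cytokines (0.060), transcription factors (0.11) and integrated stress (-0.070). Type I interferon was at -0.081 without the 2 barcodes and -0.048 without the richest cell.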

Other observations

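Beyond the genes above, trafficking transcripts of mature NK cells were near even between the libraries. Of 21 that passed the filter 1 was past 1.5-fold, Cxcr4, which holds NK cells in bone marrow, at 78.6 CPM in metformin and 124 CPM in control cells (ratio 0.633, interval 0.455 to 0.879). S1pr1, an exit receptor, was at 65.1 CPM in metformin and 49.7 CPM in control cells (ratio 1.31, interval 0.844 to 2.06), and Klf2, a factor that promotes recirculation, at 735 CPM in metformin and 679 CPM in control cells (ratio 1.08, interval 0.960 to 1.22). Klf2 had a ratio of 1.77 (interval 1.49 to 2.10) in tissue-type cells. Of 10 cytokine receptors 0 were past the fold, with a median log2 ratio of -0.05. The Y-linked genes Eif2s3y and Ddx3y had ratios of 0.997 and 0.961.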
